A study of Mus musculus with 10 samples.

Results

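Axons are steered by short-range and diffusible proteins that attract or repel the growing tip, and blood vessels use the same proteins. The genes described here are 38 such ligands and receptors among the 24704 genes measured in liver sinusoidal endothelial cells of mice, the fenestrated endothelium that lines the capillaries of the liver. The list was drawn up by gene family, with earlier results of these data known, so its counts are no independent evidence: 14 semaphorins and 7 plexins, 4 ephrins and 4 Eph receptors, 2 Slit and 2 Robo genes, and 2 netrins with 3 netrin receptors. All 38 had a probe set on the array.

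The study compared endothelial cells with and without the transcription factor gene Gata4. In the 5 samples called Gata4-LSEC-KO in the labels, and knockout here, a Clec4g-icre transgene was combined with a floxed Gata4 gene (Gata4tm1.1Sad). The transgene drives Cre recombinase in cells that use Clec4g, a lectin gene of sinusoidal endothelium, so endothelia that do not use Clec4g are not targeted by design. The 5 control samples came from sibling mice labelled WT, and the sources used here do not say whether they carried a floxed allele or the transgene, nor give age, sex or any treatment. Each sample is a pool of 3 mice, from which cells were taken with beads against CD146 after collagenase digestion and a density gradient. RNA was hybridised to Affymetrix arrays, and values are log2 array values made with RMA. A log2 fold change is knockout minus control with its standard error (SE), a mean is given with its SD over 5 arrays, and an adjusted p is that of limma with Benjamini-Hochberg adjustment over the 24704 genes. The threshold was an adjusted p of 0.05.

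For Gata4 itself, array values were 8.59 ± 0.24 (knockout, SD, n = 5) and 8.71 ± 0.15 (control), differing by -0.12 ± 0.13 (SE, adjusted p = 0.742). The sources used here do not give the position of its probes relative to the deleted part, and its value therefore does not check the labels. The driver gene Clec4g read 11.20 ± 0.29 (knockout) and 11.96 ± 0.15 (control), with no overlap. Its log2 fold change was -0.76 ± 0.14 (adjusted p = 0.0207), and it passed under 10 of the 18 alternatives run. Control replicate 1 stood apart, with correlations across genes of 0.920 to 0.944 with the other 9 arrays. The sinusoidal markers were present in both groups, with a list mean of 10.20 to 10.57 on the knockout and 10.76 to 10.98 on the control arrays, and 5 of 11 fell. At an unadjusted p under 0.05 there were 9 of the 11, all lower. Of 10 markers of endothelium of many organs 2 rose (list mean 10.04 to 10.40 against 9.98 to 10.17), and 5 of the 10 lay higher in the knockout. Markers of other cells were also found. Of 9 neutrophil and monocyte markers 6 rose (list mean 4.47 to 5.97 against 3.01 to 3.78), and 8 of the 9 had an unadjusted p under 0.05, all higher. Of 7 cholangiocyte markers 1 rose (4.39 to 6.45 against 3.45 to 4.48), while 6 had an unadjusted p under 0.05 and 6 were at least 2-fold higher. Of 5 dendritic cell markers 1 rose, Cd209a, and the list mean was higher on every knockout array (3.66 to 3.87) than on any control (2.94 to 3.58), although 3 of the 5 lay below the array median in both groups. None of 11 stellate cell and fibroblast markers passed (6.64 to 8.36 against 5.78 to 7.69), nor did any of 8 macrophage markers (6.93 to 7.98 against 5.40 to 8.16) or of 5 nerve and Schwann cell markers (3.27 to 3.64 against 3.35 to 3.43). At an unadjusted p under 0.05 these 3 lists held 4, 0 and 0 genes, the 4 all higher. Of the 11 stellate cell and fibroblast markers 9 lay higher in the knockout, with a median log2 fold change of 0.69. Of 9 hepatocyte markers 1 passed, lower in the knockout (list mean 6.30 to 7.93 against 6.62 to 7.12). Yet 7 of the 9 lay higher in the knockout and 2 lower, with a median log2 fold change of 0.36. Of 4 mesothelial markers 1 passed, higher (4.02 to 4.98 against 4.06 to 5.06), while 2 of the 4 lay higher and 2 lower. None of 8 lymphocyte or 5 platelet markers passed. None of 9 dissociation stress genes passed, although all 9 lay higher in the knockout (8.05 to 8.84 against 7.58 to 8.80). Mcam, the gene of the CD146 protein by which the cells were selected, rose 2.36-fold, from 7.77 ± 0.19 to 9.01 ± 0.10 (log2 fold change 1.24 ± 0.11, adjusted p = 0.000242), with no overlap. Its part in the other values was not tested.

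Semaphorins are secreted or membrane-bound ligands whose receptors are the plexins, and the secreted ones mostly need neuropilins as co-receptors. Ephrins are bound to the membrane and signal to Eph receptor tyrosine kinases on the neighbouring cell, with signals running both ways. Slits are secreted ligands of Robo receptors, and netrins are laminin-related ligands of Dcc and the Unc5 receptors. In blood vessels these proteins are known from the sprouting of endothelial tip cells, the separation of arteries from veins and the stability of the vessel wall.

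The bases upstream of 4 of these genes are shown because they carried the main results, the first 3 as the members past the threshold and Unc5b as the only receptor at least 2-fold higher whose groups did not overlap. They are the 250 bases before the transcript start in RefSeq (GRCm38.p6), 5′ to 3′ on the strand of the gene. Sema4b has 2 starts in that table. Capitals mark a GATA motif (GATAA or GATAG after an A or a T, on either strand) or the palindromic E-box CACGTG, which MYC and related factors bind.
Sema7a, chr9:57939862-57940111, plus strand: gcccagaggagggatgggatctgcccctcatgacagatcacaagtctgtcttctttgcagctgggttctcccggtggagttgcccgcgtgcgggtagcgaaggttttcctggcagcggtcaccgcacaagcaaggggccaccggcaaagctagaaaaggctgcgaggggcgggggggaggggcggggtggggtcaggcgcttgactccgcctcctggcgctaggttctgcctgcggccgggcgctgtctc
Sema3g, chr14:31217623-31217872, plus strand: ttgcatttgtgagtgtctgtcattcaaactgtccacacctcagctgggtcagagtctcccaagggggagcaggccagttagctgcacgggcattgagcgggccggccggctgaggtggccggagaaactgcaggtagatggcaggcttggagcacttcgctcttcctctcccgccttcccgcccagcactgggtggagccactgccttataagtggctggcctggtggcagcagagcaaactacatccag
Sema4b, chr7:80186620-80186869, plus strand: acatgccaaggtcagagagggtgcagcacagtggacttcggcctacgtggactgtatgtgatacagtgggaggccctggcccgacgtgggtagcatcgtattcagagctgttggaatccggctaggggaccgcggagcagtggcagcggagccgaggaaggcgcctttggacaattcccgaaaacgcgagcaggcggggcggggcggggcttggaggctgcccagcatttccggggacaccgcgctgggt
Sema4b, chr7:80198338-80198587, plus strand: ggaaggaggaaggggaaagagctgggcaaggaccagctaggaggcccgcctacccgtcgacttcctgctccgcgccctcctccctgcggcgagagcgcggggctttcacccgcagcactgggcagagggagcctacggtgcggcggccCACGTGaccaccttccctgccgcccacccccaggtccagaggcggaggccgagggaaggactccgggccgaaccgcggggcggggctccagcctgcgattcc
Unc5b, chr10:60831582-60831831, minus strand: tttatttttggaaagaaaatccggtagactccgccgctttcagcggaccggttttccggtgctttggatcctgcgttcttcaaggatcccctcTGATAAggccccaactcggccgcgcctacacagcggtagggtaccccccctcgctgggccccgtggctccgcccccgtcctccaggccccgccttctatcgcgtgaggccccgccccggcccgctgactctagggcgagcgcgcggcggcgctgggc

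The GATA motif was found 157 bases before the start of Unc5b and in none of the windows of Sema7a, Sema3g and Sema4b. The E-box stood 102 bases before the second start of Sema4b. The table held windows for 32 of the 38 genes, 43 in all, and 5 of them had the GATA motif (11.6%), where 26.5% of all 32851 windows of this length had it. The 5 belonged to Plxna2, Sema3a, Sema4d, Sema6d and Unc5b. The E-box was in 2 of the 43 (4.65%), those of Sema4b and Sema6d, against 6.02% of all windows. A match describes letters, not binding, and a window without one says nothing about sites elsewhere.

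Across the 38 genes, the semaphorins held all the changes that passed. Sema7a and Sema3g rose, Sema4b fell, and the other 35 genes did not pass. The 3 are 7.89% of the 38, where 2.14% of all genes passed (1.30% higher and 0.846% lower). The median log2 fold change was 0.09 over the 38 genes and -0.02 over all genes, and 23 of the 38 lay above 0. At least 2-fold differences were seen in 6 of the 38 (15.8%, against 1.80% of all genes), namely Sema3c, Sema3g, Sema4b, Sema7a, Plxnb1 and Unc5b. The groups did not overlap in 6 (15.8%, against 4.93%), and the unadjusted p was under 0.05 in 13 (34.2%, against 13.6%). The shares over all genes are not those of equally bright genes. Of all 24704 genes 11839 lay below the array median in both groups, but only 5 of the 38 did. In the fit without the dimmer genes 4 of 33 members passed, where 592 of 12352 genes did. In a bulk sample, fewer cells of a type and less RNA per cell cannot be told apart.

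**Figure D1:**
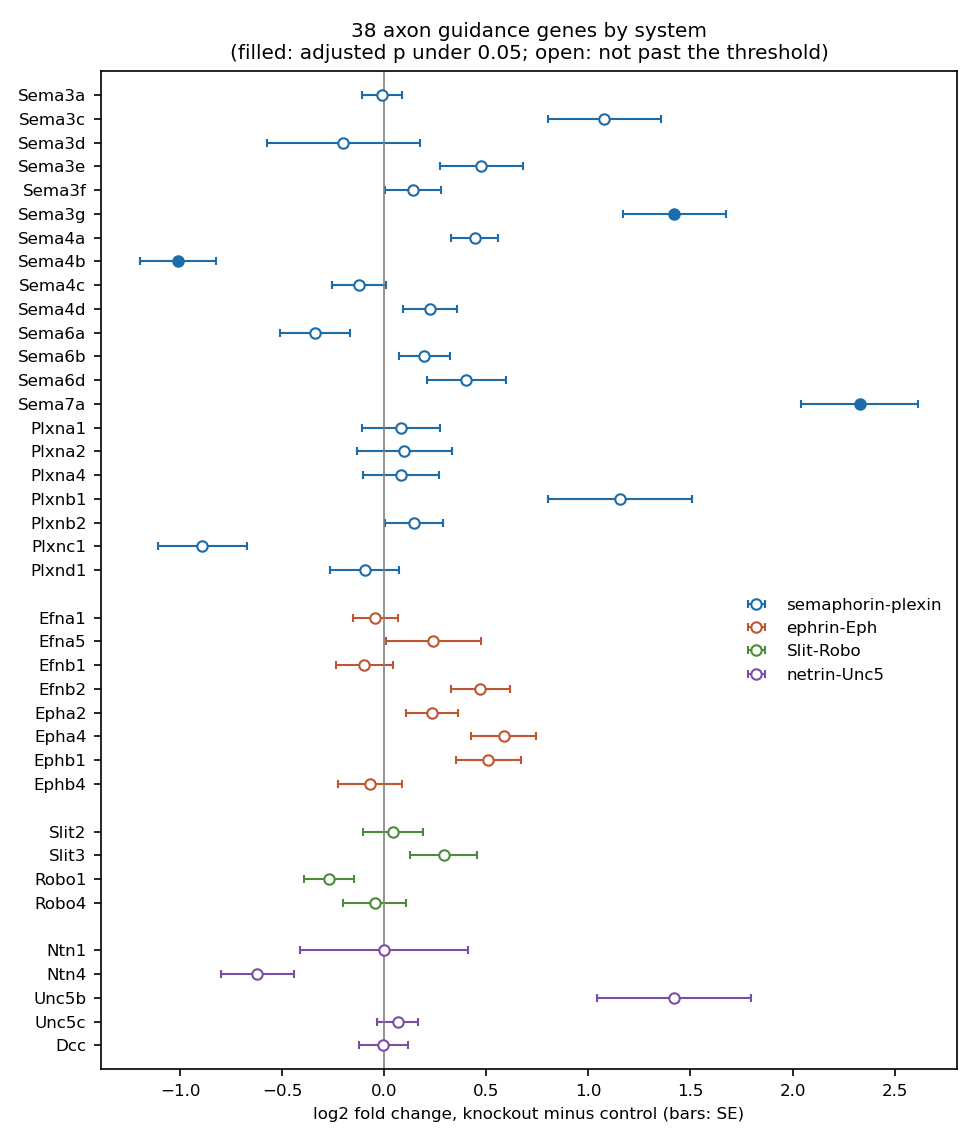
Log2 fold change, knockout minus control, of the 38 guidance genes, grouped by system, with bars for the SE. Filled points are the 3 genes past the threshold, Sema7a at 2.33, Sema3g at 1.42 and Sema4b at -1.01, and open points are the 35 that did not pass.

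Sema7a encodes a semaphorin that is anchored in the membrane by a lipid and binds plexin C1 and integrins. It read 5.97, 5.73, 6.70, 6.80 and 7.30 on knockout replicates 1 to 5 and 4.54, 4.42, 4.33, 3.85 and 3.71 on the controls. The lowest knockout array, replicate 2 at 5.73, lay well above the highest control array, replicate 1 at 4.54. The rise was 5.02-fold (log2 fold change 2.33 ± 0.29, adjusted p = 0.00143), and it passed under each of the 18 alternatives run. The control mean, 4.17 ± 0.37, is close to the array median of 3.70, so the fold is one of array values, not of RNA amounts.

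Plxnc1, the plexin that binds the Sema7a protein, did not pass and lay in the opposite direction. It read 9.75, 9.70, 10.69, 10.10 and 10.32 on the knockout arrays against 10.39, 11.22, 11.10, 11.28 and 11.03 on the controls. Control replicate 1 was the only control array below the highest knockout array. The difference was -0.89 ± 0.22 (log2, adjusted p = 0.064), and without control replicate 1 it was -1.05 with an adjusted p of 0.0126. It also passed without knockout replicate 3 (0.0331), with array weights (0.00582), with an intensity trend (0.0449) and without the dimmer genes (0.0423).

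Sema3g encodes a secreted semaphorin known from arterial endothelium. Its knockout values were 5.50, 5.84, 6.35, 6.44 and 6.90, and its control values 5.17, 4.79, 5.07, 4.50 and 4.41. Every knockout array was above every control array, the nearest being replicate 1 of each group. It rose 2.68-fold (log2 fold change 1.42 ± 0.25, adjusted p = 0.0139). The call held without each single array (adjusted p up to 0.0457). It did not hold with an ordinary linear model per gene (0.0659) or with the replicate number as a block (0.0794).

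Sema4b, a transmembrane semaphorin, fell. It read 5.27, 4.97, 5.77, 5.30 and 4.65 on the knockout arrays and 6.08, 6.21, 6.03, 6.49 and 6.20 on the controls, with no overlap. The fall was 2.02-fold (log2 fold change -1.01 ± 0.19, adjusted p = 0.0179). The gene no longer passed when knockout replicate 2 (adjusted p = 0.0564), control replicate 4 (0.0525) or control replicate 5 (0.0521) was left out. Nor did it pass without both knockout replicates 1 and 2 (0.138), with an ordinary linear model (0.0658) or with the replicate number as a block (0.0631). The E-box in its second window, shown above, was the only motif found in the 3 genes that passed.

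**Figure D2:**
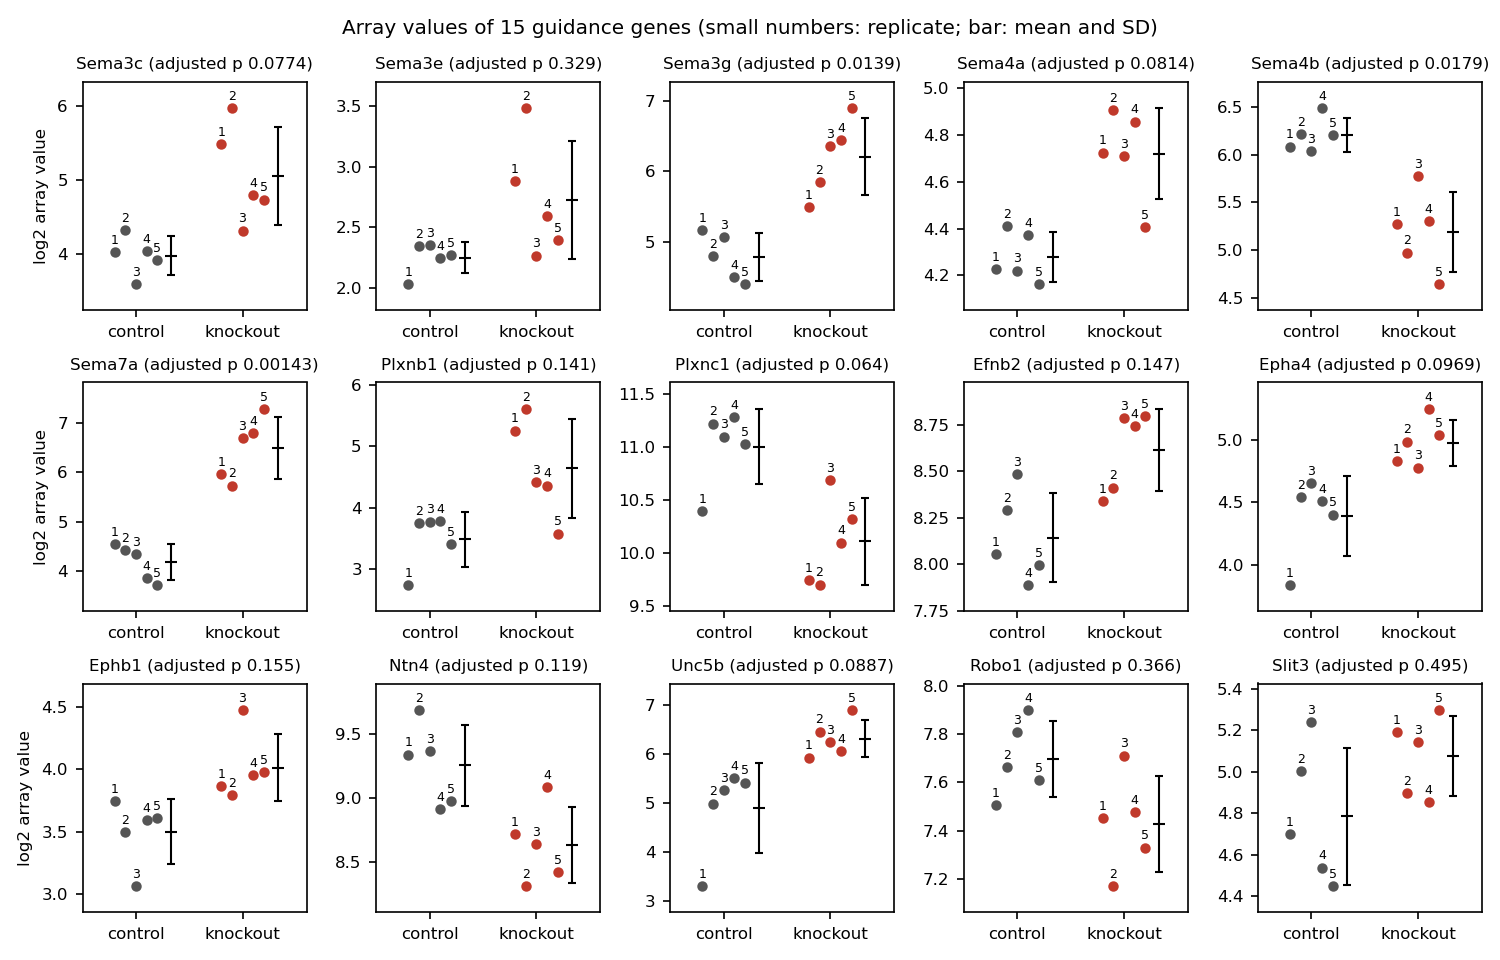
Log2 array values of 15 guidance genes in control and knockout arrays, each point 1 array marked with its replicate number, with the mean and SD beside them. The groups do not overlap for Sema3g, Sema4b, Sema7a, Epha4, Ephb1 and Unc5b, while control replicate 1 lies far below the other controls for Unc5b (3.30) and Plxnc1 (10.39).

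Among the other secreted semaphorins none passed. Sema3c, whose product acts on neuropilins and plexin D1, read 5.48, 5.97, 4.32, 4.79 and 4.74 in the knockout and 4.03, 4.32, 3.60, 4.04 and 3.92 in the controls. Knockout replicate 3 and control replicate 2 met at 4.32 and the other knockout arrays lay above every control, giving a difference of 1.08 ± 0.28 (log2, adjusted p = 0.0774). It passed without knockout replicate 3 (0.038), with array weights (0.0453) and with the replicate number as a block (0.0396). Sema3e, the ligand of plexin D1 that needs no neuropilin, was at 0.48 ± 0.20 (adjusted p = 0.329), its 2 highest values being 3.48 and 2.88 on knockout replicates 2 and 1. Sema3f, a ligand of neuropilin-2, was at 0.14 ± 0.14, Sema3d at -0.20 ± 0.38 and Sema3a, the first semaphorin known to collapse growth cones, at -0.01 ± 0.10.

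The remaining membrane semaphorins also did not pass. Sema4a, known from immune cells, ranged from 4.41 to 4.91 in the knockout and from 4.16 to 4.41 in the control, touching only at 4.41 (log2 fold change 0.44 ± 0.11, adjusted p = 0.0814). Its adjusted p was 0.0281 without knockout replicate 5 and 0.029 with array weights. Sema4d, the ligand of plexin B1, was at 0.22 ± 0.13, and Sema4c, a ligand of plexin B2, at -0.13 ± 0.13. Sema6d was at 0.40 ± 0.19, Sema6b at 0.20 ± 0.13 and Sema6a at -0.34 ± 0.17. All 3 belong to the transmembrane semaphorins that bind class A plexins. Among the knockout arrays Sema6a was lowest on replicates 1 and 2, at 8.90 and 8.98 against 9.42 to 9.68 on the other 3. Other members, among them Plxnc1, Plxnd1, Efnb1, Ephb4 and Robo4, were lowest on the same knockout arrays.

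Plexins other than Plxnc1 gave smaller or less even differences. Plxnb1, the receptor of Sema4d, read 5.25, 5.61, 4.42, 4.36 and 3.57 in the knockout and 2.74, 3.74, 3.77, 3.78 and 3.40 in the controls. Knockout replicate 5 lay within the controls, and the other 4 knockout arrays above them. The difference was 1.16 ± 0.35 (log2, adjusted p = 0.141), and 1.42 with an adjusted p of 0.0387 without knockout replicate 5. Plxnd1, the endothelial plexin for Sema3e, read 10.18 ± 0.34 in the knockout and 10.27 ± 0.20 in the controls, a log2 fold change of -0.10 with a 95% interval of -0.47 to 0.27. Plxna1, Plxna2, Plxna4 and Plxnb2 were between 0.08 and 0.15, with intervals that all included 0, and the widest, of Plxna2, ran from -0.41 to 0.61.

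Plxnb1, Sema3c and Sema3e had their highest values on knockout replicates 1 and 2. So had the mean of the 7 cholangiocyte markers, at 5.99 and 6.45 on these arrays against 4.67, 5.33 and 4.39 on knockout replicates 3, 4 and 5. Among the knockouts the mean of 9 dissociation stress genes was also highest there, at 8.84 and 8.79 against 8.27, 8.05 and 8.10. On the controls it ran from 7.58 to 8.80. Without both knockout replicates 1 and 2 the log2 fold change was 0.63 for Plxnb1 (adjusted p = 0.508), 0.63 for Sema3c (0.223) and 0.17 for Sema3e (0.749), and 2.76 for Sema7a (0.00169) and 1.78 for Sema3g (0.00638). These arrays were chosen after the values were seen, so the direction of each shift followed from the choice. Sema7a and Sema3g were lowest on these arrays among the knockouts. So was the mean of the 10 markers of endothelium of many organs, at 10.04 and 10.07 against 10.40, 10.30 and 10.38. The mean of the 11 sinusoidal markers was also lowest there, at 10.25 and 10.20 against 10.57, 10.48 and 10.30. The means of the neutrophil and monocyte list and of the dendritic cell list were higher on every knockout array than on any control, as were the values of Mcam, Sema7a and Sema3g. The part of these cells and of dissociation stress in the values was not tested.

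**Figure D3:**
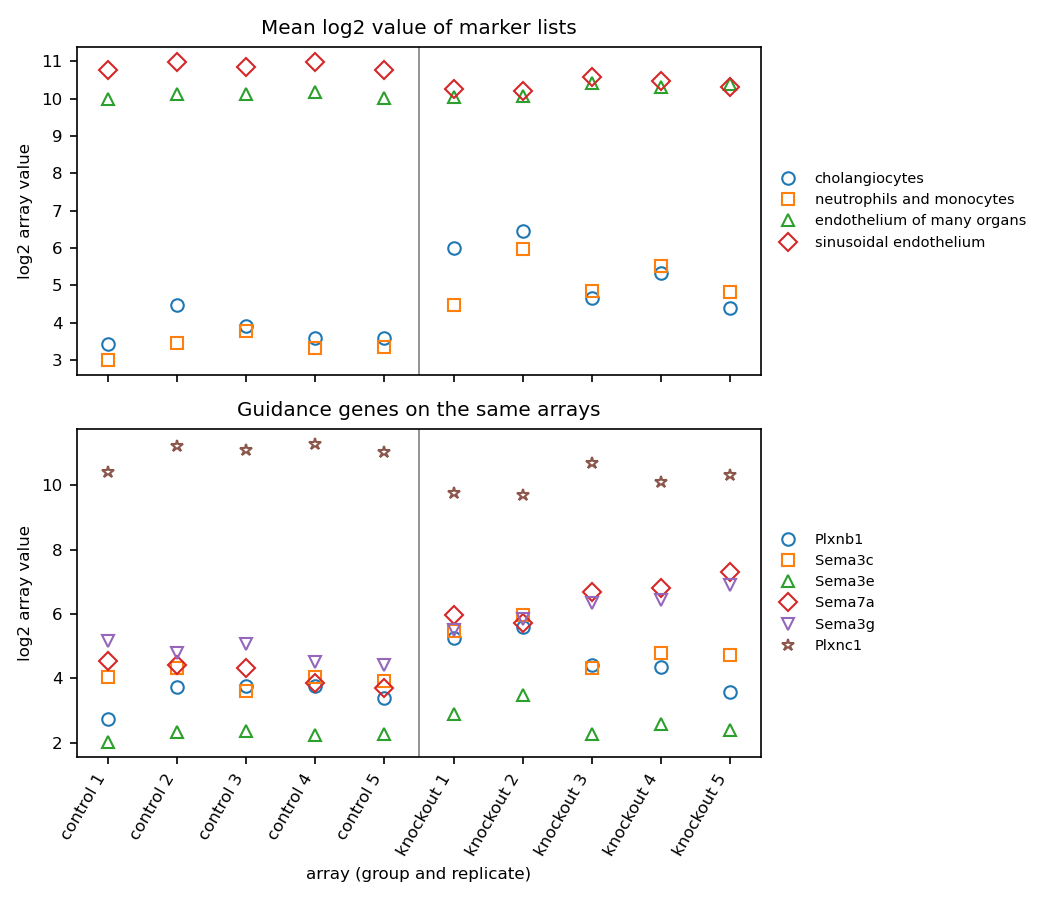
Mean log2 values of 4 marker lists (upper panel) and log2 values of 6 guidance genes (lower panel) on the 10 arrays. Cholangiocyte markers, Plxnb1, Sema3c and Sema3e peak on knockout replicates 1 and 2. Sema7a, Sema3g, Plxnc1 and both endothelial lists are lowest there among the knockout arrays.

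None of the 8 ephrin and Eph genes passed, with 3 at an unadjusted p under 0.05 (37.5%, against 13.6% of all genes), all higher. Efnb2 encodes ephrin-B2, the mark of arterial endothelium, and Ephb4 its receptor on veins. Efnb2 read 8.34, 8.41, 8.78, 8.74 and 8.79 in the knockout and 8.05, 8.29, 8.48, 7.89 and 8.0 in the controls. Control replicate 3 alone reached into the knockout range, and the log2 fold change was 0.47 ± 0.15 (adjusted p = 0.147). Ephb4 read 9.18 ± 0.31 and 9.25 ± 0.17, a difference of -0.07 with an interval of -0.41 to 0.27.

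Epha4 and Ephb1 were the Eph receptors whose groups did not overlap, which held for 4.93% of all genes. Epha4, a receptor that binds ephrins of both classes, read 4.83, 4.98, 4.78, 5.25 and 5.03 in the knockout and 3.84, 4.54, 4.65, 4.51 and 4.40 in the controls. Control replicate 1 was lowest, and the log2 fold change was 0.58 ± 0.16 (adjusted p = 0.0969, and 0.0412 with array weights). Ephb1, a receptor of B-class ephrins, read 3.87, 3.79, 4.47, 3.95 and 3.98 in the knockout. Its controls read 3.74, 3.50, 3.07, 3.59 and 3.61, close to the array median, and the log2 fold change was 0.51 ± 0.16 (adjusted p = 0.155). Efna1, an ephrin induced in inflamed endothelium, was at -0.04 ± 0.11 and its receptor Epha2 at 0.23 ± 0.13. Efnb1 was at -0.10 ± 0.14 and Efna5 at 0.24 ± 0.23.

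The 4 Slit and Robo genes showed no change past the threshold and none had an unadjusted p under 0.05. Robo1, the receptor of Slit proteins on many cells, read 7.45, 7.17, 7.71, 7.48 and 7.33 in the knockout and 7.51, 7.66, 7.81, 7.90 and 7.61 in the controls. The groups overlapped, and the difference was -0.27 ± 0.12 (log2, adjusted p = 0.366). The ligand gene Slit3 read 5.19, 4.89, 5.14, 4.85 and 5.30 in the knockout and 4.70, 5.00, 5.24, 4.54 and 4.45 in the controls (0.29 ± 0.16, adjusted p = 0.495). Robo4, the Robo receptor of endothelium, differed by -0.05 with an interval of -0.39 to 0.29. Slit2 lay below the array median in both groups, at 2.62 ± 0.22 and 2.58 ± 0.25.

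None of the 5 genes of the netrin system passed. Unc5b, the netrin receptor of endothelial tip cells and a partner of Robo4, read 5.92, 6.45, 6.24, 6.05 and 6.89 in the knockout and 3.30, 4.98, 5.26, 5.50 and 5.41 in the controls. The groups did not overlap, and control replicate 1 was far below the other controls. The difference was 1.42 ± 0.38 (log2, adjusted p = 0.0887). Without control replicate 1 it was 1.02 with an adjusted p of 0.0151, smaller in size but past the threshold. Its upstream window with the GATA motif in capitals is shown above.

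Ntn4 encodes a netrin of basement membranes that binds laminin. It read 8.72, 8.31, 8.63, 9.08 and 8.42 in the knockout and 9.34, 9.69, 9.36, 8.91 and 8.97 in the controls. Knockout replicate 4 was the only knockout array above a control, and the log2 fold change was -0.62 ± 0.18 (adjusted p = 0.119). Ntn1, the classical netrin, varied widely in both groups, from 6.05 to 7.75 and from 5.89 to 7.74, with a difference of -0.00 and an interval of -0.90 to 0.90. Unc5c (0.06 ± 0.10) and Dcc (-0.01 ± 0.12), netrin receptors of neurons, were under the array median in both groups, as were Sema3a, Sema3e and Slit2.

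**Figure D4:**
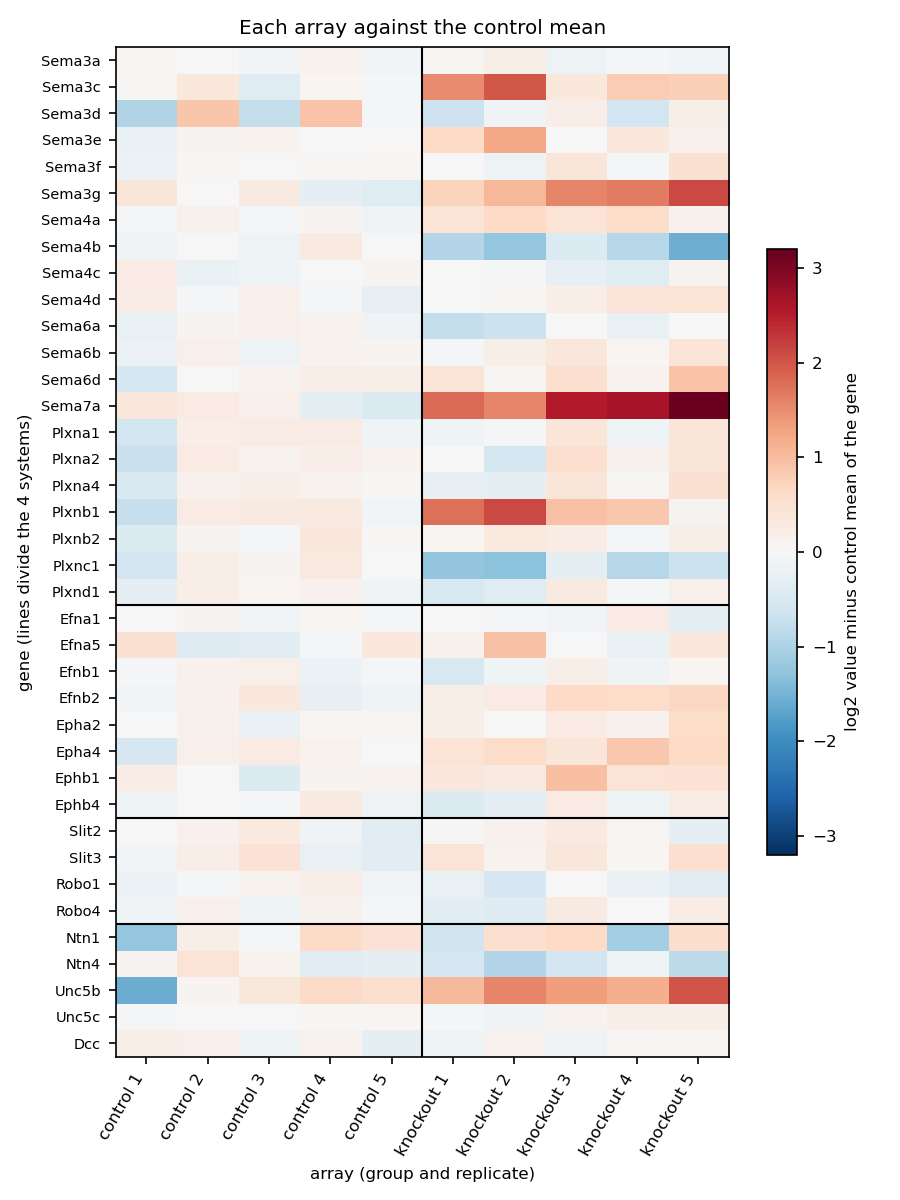
Log2 value of each guidance gene on each array minus the control mean of that gene, with lines between the 4 systems. Sema7a and Sema3g are above 0 on all 5 knockout arrays and Sema4b below. Several genes that did not pass, such as Unc5b, Sema3c and Epha4, are also above 0 on all 5, and Plxnc1 and Ntn4 below. Control replicate 1 is low for Unc5b, Ntn1, Plxnb1 and the class A plexins.

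The count of members past the threshold depended on the weight of single arrays. With array weights, which gave control replicate 1 a weight of 0.203, 8 of the 38 passed, where 4.33% of all genes did. Besides the 3 genes above these were Sema3c, Sema4a, Plxnc1, Epha4 and Unc5b. Without control replicate 1, 5 passed (2.98% of all genes), Plxnc1 and Unc5b being added. Without knockout replicate 3 it was also 5, with Plxnc1 and Sema3c (1.74% of all genes), and without knockout replicate 5 again 5, with Plxnb1 and Sema4a (2.23%).

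**Figure D5:**
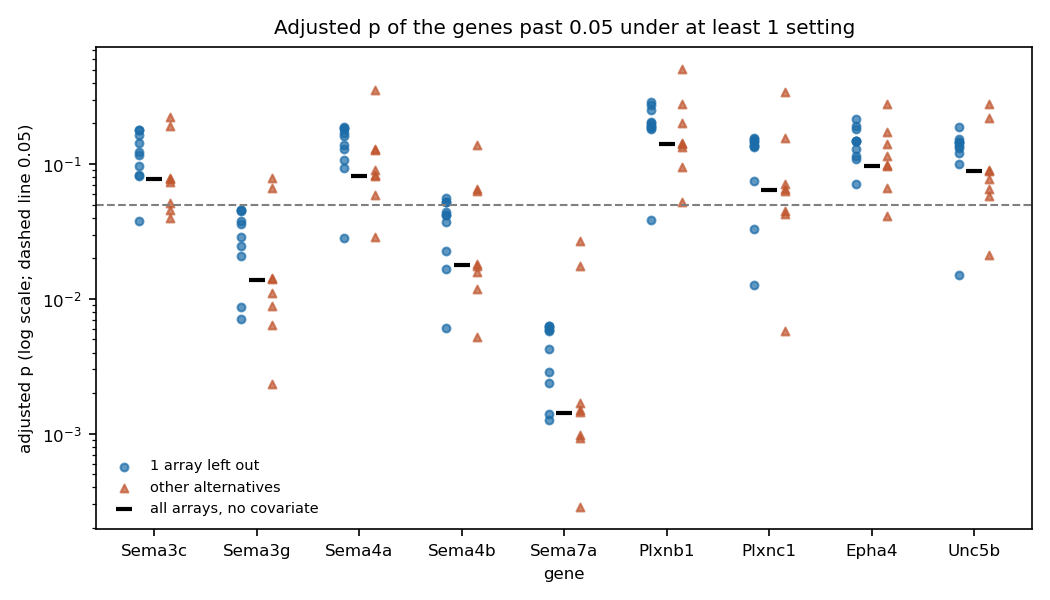
Adjusted p (log scale) of the 9 guidance genes that passed under at least 1 setting, for the fit on all arrays (bars), with 1 array left out (circles) and under the other alternatives (triangles), with the threshold dashed. Sema7a stays below 0.05 throughout, with a largest adjusted p of 0.027, while the other 8 genes cross the line.

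Other genes of these pathways were taken from 2 lists. Of 38 further ligands and receptors measured, 2 fell, none rose and 36 did not pass, with a median of -0.03. The 2 are 5.26% of that list, against 2.14% of all genes past the threshold and 0.846% lower. An unadjusted p under 0.05 was found in 6 (15.8%, against 13.6% of all genes), and 16 of the 38 lay below the array median in both groups. Ntng2, a lipid-anchored netrin-G of neurons that does not use the classical netrin receptors, read 6.25, 6.48, 7.02, 6.63 and 7.0 in the knockout and 7.55, 7.77, 7.68, 7.64 and 7.40 in the controls. It fell 1.90-fold (log2 fold change -0.93 ± 0.16, adjusted p = 0.01), with no overlap. It did not pass without knockout replicates 1 and 2 (0.0642) or with the replicate number as a block. Unc5a, a further netrin receptor, fell 1.77-fold (-0.82 ± 0.17, adjusted p = 0.0293), reading 4.18 ± 0.22 and 5.00 ± 0.33 (SD, n = 5). With any 1 of knockout replicates 1 to 4, or control replicate 2, left out it did not pass (up to 0.0824).

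Of 35 measured genes that pass the signal into the cell, 2 rose, none fell and 33 did not pass, with a median of 0.09. The 2 are 5.71% of the list, against 2.14% of all genes past the threshold and 1.30% higher, and 12 (34.3%, against 13.6%) had an unadjusted p under 0.05. None of the 35 lay below the array median in both groups. Rnd1, a small GTPase that binds the inner part of plexins, read 5.12, 5.32, 5.22, 5.70 and 5.79 in the knockout and 4.11, 4.35, 4.36, 4.61 and 3.92 in the controls. It rose 2.23-fold (1.16 ± 0.17, adjusted p = 0.00424), with no overlap, and passed under all 18 alternatives. Ablim1, an actin-binding protein whose worm relative acts in netrin guidance, rose 2.09-fold (1.06 ± 0.23, adjusted p = 0.0419). It did not pass when knockout replicate 2, 4 or 5, or any control but replicate 1, was left out (up to 0.112).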

How the data were processed

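Cells of 10 samples, 5 knockout and 5 control, were measured on 1-colour Affymetrix arrays. The authors' deposited values are log2 probe set values made with RMA, per the submitters' processing notes; a version is not among them. RMA corrects background, brings arrays to one distribution and summarizes probes. Array medians were 3.698 to 3.703 over the genes used, and the values were used as they stand. The sources used here give neither probe positions nor a genome build. Precision is limited by the number of arrays (5 in each group).

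The platform annotation named 1 symbol for 24705 of the 25428 probe sets and several for 0, while 723 are unnamed and were not used. For 1 symbol with more than 1 probe set the brighter was kept, leaving 24704 genes. Groups were compared over all genes with limma 3.58.1 in R 4.3.3 (lmFit, eBayes, two-sided, no covariate, no filter on dim genes) and p-values adjusted by Benjamini-Hochberg. The procedure was tested on simulated data. The spread behind each p-value is that between pools of 3 mice. Marker list means are means of log2 values. No detection calls were used, so no gene can be called absent. The members and lists were chosen with earlier results of these data known. 3 list genes of these pathways and 6 marker genes had no probe set with that symbol. Full values are given for members past the threshold, for the 2 with the smallest p in a system without any, and for others where they bear on these. Genes of the 2 further lists are named where they passed. Members named beyond that rule were chosen after their values were seen. Alternatives were an intensity trend, robust eBayes, array weights, centring, a filter on dim genes, an ordinary linear model, the replicate number as a block and leaving out arrays. Leaving out knockout replicates 1 and 2 together was chosen after seeing the data.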

Additional observations from a re-analysis of the deposited data

Results flagged for a closer look

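Among 5 arrays of a group, 1 array lay far from the other 4 (a gap over 0.71 of the whole range) in 6 of the 88 groups of values examined. Chance gives about 1 in 20. In 5 of the 6 the array was control replicate 1. It read 8.96 for Sema3f (others 9.15 to 9.21), 7.17 for Plxna2 (7.97 to 8.14), 5.92 for Plxna4 (6.44 to 6.59), 10.39 for Plxnc1 (11.03 to 11.28) and 3.30 for Unc5b (4.98 to 5.50), each time as the lowest. The sixth was knockout replicate 3 for Ephb1, which read 4.47 where the others read 3.79 to 3.98.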

How the results depend on the processing

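All 38 guidance genes, 4 further pathway genes, Gata4 and Clec4g were refitted under 18 alternatives. Of the resulting values 737 kept their side of the threshold, 36 lost it, 14 gained it and no called value changed direction. 5 dim genes were absent from the fit without the dimmer genes. The 3 guidance genes past the threshold became 8 with array weights and 1, Sema7a, with an ordinary linear model, and 2 to 5 when single arrays were left out. The 4 further pathway genes became 2 with an ordinary linear model and 1 without knockout replicates 1 and 2, and 2 to 4 without single arrays. Over all genes 529 passed, 1070 with array weights, 324 with an ordinary linear model, 171 without knockout replicates 1 and 2, and 287 to 737 without single arrays. The causes of these differences were not tested. The labels do not say whether samples of the same replicate number were handled together. Deviations from the group means correlated between arrays of the same number at -0.165 to 0.039, which cannot settle it. With the replicate block, 2 guidance genes passed (Sema7a and Sema3c), 1 further pathway gene (Rnd1) and 275 of all genes. Sema3g (adjusted p = 0.0794), Sema4b (0.0631), Ntng2 (0.0518), Unc5a (0.0971) and Ablim1 (0.154) did not pass with it. In the promoters, GATAA alone in place of the longer motif was found in 5 windows, the same number. Signal limits Sema3a, Sema3e, Slit2, Unc5c and Dcc, which lie under the array median.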
